A study of Drosophila melanogaster with 18 samples.

Results

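The 10 genes described here encode the enzymes and substrates of the ubiquitin-like conjugation systems of autophagy in Drosophila melanogaster: Atg8a and Atg8b, the proteases Atg4a and Atg4b, the activating enzyme Atg7, the conjugating enzymes Atg3 and Atg10, and Atg12, Atg5 and Atg16. They were picked by gene symbol and not by a measured value, though with earlier results of these data known, and all 10 were found among the 17494 genes of both deposited exon count tables. In fat body of wild type females, 3 of them were called higher at the wandering stage (L3W) than at the feeding stage (L3F): Atg7 by 4.49, Atg8a by 2.02 and Atg3 by 1.35 on the log2 scale, where 4.27% of all genes tested were called higher. The direction of these 3 held when any 1 library was left out, but the 3 calls together did not. In fat body of feeding males, none passed the same threshold in edgeR after M1BP RNAi, with ZKSCAN3, or with both, where at most 0.0341% of all genes did. DESeq2 on the M1BP RNAi and WT libraries alone called Atg8a.

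Autophagy encloses cytoplasm in a double membrane, and that membrane grows with the help of proteins built like ubiquitin. Atg4 proteases trim Atg8, Atg7 activates it and Atg3 passes it to the lipid phosphatidylethanolamine, so that Atg8 becomes anchored in the membrane. Atg7 and Atg10 link Atg12 to Atg5 in the same way, and the Atg12-Atg5 conjugate with Atg16 directs where Atg8 is attached. The larval fat body, the fly's storage organ, undergoes autophagy late in larval life and on starvation, and Atg8a is the usual marker of it.

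RNA was sequenced from fat body of larvae reared at 25 °C in 6 groups of 2 libraries. The 4 male groups were dissected at L3F with the gonads removed and all carried the fat body driver cgGal4: crossed to wild type (WT), driving M1BP-RNAi (M1BP RNAi), driving HA::ZKSCAN3 (ZKSCAN3), or driving both (M1BP RNAi + ZKSCAN3). The labels give the fly ZKSCAN3 an HA tag and the study's methods give it a myc tag. The female groups, L3F and L3W, were wild type without the driver. ChIP-seq with an HA antibody was done in S2 cells, a line derived from late embryos, stably transfected with HA::ZKSCAN3 or HA::ZKSCAN4 and treated with copper, and the authors deposited 1 merged peak list for each factor. M1BP is a zinc finger factor that binds the core promoter element Motif 1, and ZKSCAN3 and ZKSCAN4 are vertebrate zinc finger factors. In the males, RNA came from several pooled fat bodies, and cgGal4 is also active in hemocytes.

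Total counts ran from 53462739 to 76798943 in males and from 58313885 to 74175081 in females, and the 6 fat body marker genes summed to between 216673 and 379826 CPM (counts relative to the total of the library), with none at 0 in any group. In TPM, counts divided by exon length and scaled to the same sum in every library, M1BP itself was at 9.76 and 8.88 after M1BP RNAi and at 11.03 and 12.7 with both transgenes, against 16.3 and 16.5 for WT and 13.7 and 15.2 for ZKSCAN3. The difference between M1BP RNAi and WT was -1.27 on the log2 scale (SE 0.136, FDR = 0.00776), which passed 0.05 but not the 0.001 used for calls here. Female L3F replicate 2 went against its label: it held 3604 counts of the male-specific RNA roX1, against 42 to 107 in the other female libraries and 16321 or more in males, and its 14 testis markers summed to 25.0 CPM against 6.32 in replicate 1, with 72 counts of aly, 74 of can and 419 of betaTub85D, which stood at 2, 0 and 0 in replicate 1. It is called the library labelled female L3F replicate 2 below, and the members' differences at L3W are given with and without it. The gene lists and correlations include it. Male M1BP RNAi replicate 1 held 80.0 CPM of the testis markers and 1989 counts of betaTub85D, against 5.72 to 14.7 CPM in the other male libraries.

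The members lie on all major arms except chromosome 4. In dm6, the build of the count tables, Atg8a occupies chrX:10764878-10768338, Atg5 chrX:7314622-7323770, Atg3 chr3L:18748687-18750483, Atg12 chr3L:12136967-12137559, Atg4a chr2L:1080911-1085380, Atg4b chr3R:15353720-15356924, Atg16 chr3R:29827281-29835101 and Atg8b chr3R:17724410-17725063. Atg7 lies at chr2R:18620466-18625044 and Atg10 at chr2R:7832171-7835518. Their FlyBase identifiers, in the order just given, are FBgn0052672, FBgn0029943, FBgn0036813, FBgn0036255, FBgn0031298, FBgn0038325, FBgn0039705, FBgn0038539, FBgn0034366 and FBgn0040780. The counting used neither strand nor a rule against shared reads, so a read over 2 overlapping genes was counted for each, and 4 members share exon bases with a neighbour. Atg4a shares 51.4% of its 4078 exon bases with the opposite gene CG4629, Atg10 shares 50.1% of its 1516 with CG12822 and Dgk, Atg12 shares 13.6% of its 469 with ND-SGDH, and Atg4b shares 7.77% of its 2665 with Tmtc4. Atg10 had 91 to 289 counts in the 12 libraries, and its neighbours together had more counts than it in every one, so the reads of Atg10 cannot be told apart from theirs. The same limit holds for Atg12, which had 45 to 200 counts. ND-SGDH had 1407 to 7286, more than Atg12 in every library. The other 6 members share none.

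**Figure D1:**
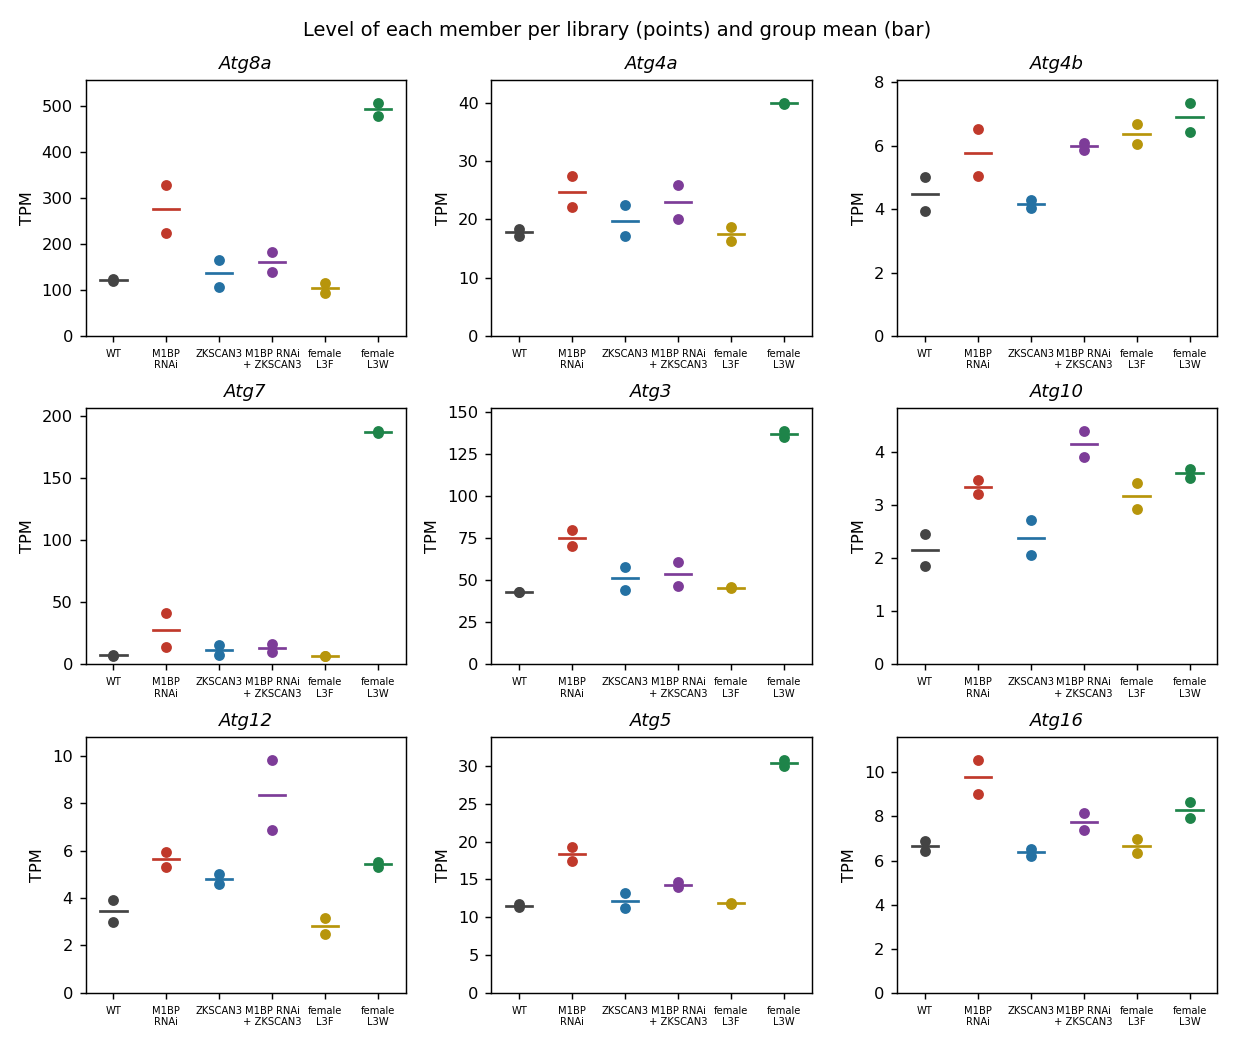
TPM of 9 members in each RNA library (points) and the mean of each group (bar), on linear axes from 0; the first 4 groups are feeding males and the last 2 are wild type females. Atg8a is the most abundant member in every group, and the females at L3W stand above all other groups for Atg7, Atg3, Atg5, Atg4a and Atg8a.

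Atg8a, the ubiquitin-like protein that is attached to the membrane, was the most abundant of the 10 in every library on the TPM scale, which divides by exon length so that genes can be compared. Its level was 123 ± 3.05 TPM in male WT and 104 ± 14.9 in female L3F (SD, n = 2), and it made up 48.6% to 62.3% of the TPM of the 10 members over the 12 libraries. Below it in WT came Atg3 at 43.2 ± 0.0294, Atg4a at 17.7 ± 0.851, Atg5 at 11.5 ± 0.352, Atg7 at 7.32 ± 0.733, Atg16 at 6.66 ± 0.318, Atg4b at 4.49 ± 0.754, Atg12 at 3.46 ± 0.680 and Atg10 at 2.16 ± 0.429 TPM (SD, n = 2). Only Atg7 and Atg16 overlapped between neighbours in that order in WT. In female L3F the order was the same down to Atg16, which overlapped with Atg4b, and Atg10 stood above Atg12 with overlapping libraries. At L3W Atg7 had moved from the fifth place to the second, between Atg8a and Atg3, and no neighbours overlapped. TPM carry no TMM factor, the correction for library composition used below, so comparisons between groups are given in scaled CPM. The enzyme that serves Atg8, Atg3, stood far above its counterpart for Atg12, Atg10, in all 12 libraries, although the reads of Atg10 are shared.

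For the comparisons between groups, CPM were scaled with TMM factors, and a member was called at an FDR under 0.001. The genes called at L3W all serve the attachment of Atg8. Atg8a stood at 96.2 and 115.3 CPM in L3F and at 427 and 430.5 in L3W, and rose by 2.02 on the log2 scale (SE 0.122, FDR = 8.40e-04). All L3W values were more than 3 times the L3F values, and the groups did not overlap. Atg7, which activates both Atg8 and Atg12, stood at 10.3 and 9.99 CPM in L3F and at 235 and 223 in L3W, and rose by 4.49 (SE 0.0966, FDR = 4.29e-04). Atg3 stood at 33.4 and 33.5 CPM in L3F and at 86.4 and 84.5 in L3W, and rose by 1.35 (SE 0.0824, FDR = 8.51e-04). These 3 of the 9 members tested were called higher, where 4.27% of the 10720 genes tested were called higher and 3.52% lower, and no member was called lower.

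Atg5 and Atg4a passed an FDR of 0.05 but not 0.001. Atg5, the partner of Atg12, stood at 10.1 and 10.1 CPM in L3F and at 22.3 and 21.9 in L3W, a difference of 1.13 (SE 0.0932, FDR = 0.00166). Atg4a stood at 40.2 and 45.2 CPM in L3F and at 85.4 and 81.2 in L3W, a difference of 0.96 (SE 0.102, FDR = 0.00313). Its antisense neighbour CG4629 had 464 and 500 counts in L3F and 1518 and 1714 in L3W. With every CG4629 count taken away from Atg4a, 33.3 and 38.0 CPM were left in L3F and 60.8 and 58.6 in L3W, a log2 ratio of 0.74, and the groups still did not overlap. At FDR 0.05, 5 of 9 members were higher, against 23.3% of all genes higher and 24.7% lower.

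The other 4 members tested did not pass at 0.05. Atg12 stood at 0.706 and 0.875 CPM in L3F and at 1.31 and 1.29 in L3W, a difference of 0.72 (SE 0.361, FDR = 0.175), on only 47 to 98 counts a library. Its neighbour ND-SGDH had 5028 and 4941 counts in L3F and 1407 and 1634 in L3W. Atg16 stood at 10.9 and 9.64 CPM in L3F and at 10.7 and 11.1 in L3W, Atg10 at 2.70 and 3.07 against 2.80 and 2.80, and Atg4b at 9.82 and 10.6 against 9.004 and 9.80. Their differences were 0.08 (SE 0.121), -0.05 (SE 0.206) and -0.12 (SE 0.120), so each lay within about its own standard error of 0. By libraries, 6 members were apart and higher (background 38.6%) and 1, Atg4b, apart and lower (background 39.1%). Without TMM factors, where the median of all genes moved up by 0.24, Atg4b and Atg10 turned to 0.12 and 0.19 and no call changed. The median of the 9 members was 0.96, beside -0.01 over all genes.

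**Figure D2:**
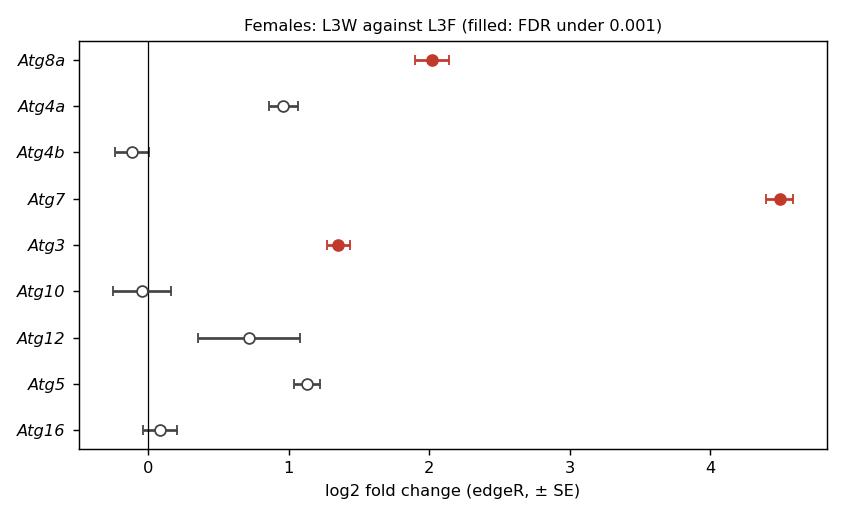
log2 fold change of 9 members in females, L3W against L3F, from edgeR with its standard error as the bar; filled points passed an FDR of 0.001. Atg7, Atg8a and Atg3 are filled, Atg5 and Atg4a lie near 1, and Atg16, Atg10 and Atg4b lie within 0.12 of 0.

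Paralogous and partner genes were also compared within each library. The ratio of Atg4a to Atg4b TPM within a library was 2.74 on average at L3F and 5.80 at L3W, the ratio of Atg3 to Atg10 was 14.5 and 37.9, that of Atg7 to Atg3 was 0.155 and 1.37, and that of Atg5 to Atg16 was 1.78 and 3.67. Ratios within a library do not depend on how libraries are scaled. Those of Atg4a to Atg4b and of Atg3 to Atg10 do include reads shared with overlapping neighbours, and no ratio without such reads was computed. In L3F replicate 1 alone these ratios were 2.68, 15.4, 0.157 and 1.68. The libraries of the 2 stages did not overlap for any of these 4 ratios, and the exact permutation test gave p = 0.333 for each, the smallest that 2 libraries against 2 allow (two-sided).

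The direction of the 3 called members was the same without any 1 library, but the calls at 0.001 were not. Without the library labelled female L3F replicate 2, Atg7, Atg8a and Atg3 differed by 4.46, 2.14 and 1.34 (FDR = 0.00120, 0.00156 and 0.00297), with the lone L3F library assumed to vary like the others. Atg5 then stood at 1.11 (FDR = 0.00720), Atg4a at 1.03 (FDR = 0.00536), Atg12 at 0.86, Atg10 at 0.033, Atg16 at -0.019 and Atg4b at -0.078. Leaving out either L3W library gave FDR values of 0.0185 to 0.0256 for the 3 genes. In each of these 3 fits 0% of all genes were called, so the lost calls are not particular to the members. Without L3F replicate 1, Atg7 alone was called (FDR = 9.40e-04), with 1.25% of all genes. DESeq2 on the same 4 libraries called 5 of 9 members, adding Atg4a (FDR = 1.79e-12) and Atg5 (FDR = 4.00e-12), where it called 31.6% of genes. The 8 midgut markers summed to 1365 CPM in L3F replicate 1 and 4.99 in the library labelled female L3F replicate 2, and to 957 and 226 in L3W, the 9 salivary gland markers to 63.9 and 835 in L3F and 14.5 and 47.1 in L3W, and the 7 hemocyte markers to 311 and 310 in L3F and 614 and 526 in L3W. The 8 muscle markers summed to 62.1 and 142 CPM in L3F and 24.1 and 35.1 in L3W, and the 6 fat body markers to 379035 and 379826 in L3F and 297422 and 295602 in L3W. The part of these lists in the differences was not tested. In bulk samples such as these, fewer cells of a type and less RNA per cell cannot be told apart.

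Other genes of the pathway, written as lists from general knowledge, are given for comparison. Over all genes tested, 4.27% were called higher at L3W and 3.52% lower. Of 13 other autophagy genes tested, 3 were called higher and none lower. The 3 were Atg1, the kinase that starts autophagy, at 3.72 (SE 0.155), Atg2, a lipid transfer protein, at 1.62 (SE 0.0841) and Atg18b at 3.45 (SE 0.115). Of 5 receptors and partners of Atg8a, only bchs was called, at 3.32 (SE 0.149). Of 14 genes of other ubiquitin-like conjugation systems (SUMO, NEDD8, UFM1 and the like), none was called higher and 2 were called lower, among them Ufm1, which fell by 1.98 (SE 0.109). The median was 0.85 over the 13 autophagy genes and -0.64 over the 14 other conjugation genes, beside 0.96 for the members. At FDR 0.05, 11 of the 13 autophagy genes and 3 of the 5 receptors and partners were higher, beside 5 of 9 members. Of the 14 other conjugation genes, 1 was higher and 8 were lower. Over all genes, 23.3% were higher and 24.7% lower at that threshold. No test compared the lists.

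Among males, the question was whether loss of M1BP moved these genes and whether ZKSCAN3 did so too. No member was called in M1BP RNAi against WT (0.0341% of 11723 genes were), nor in ZKSCAN3 against WT, M1BP RNAi + ZKSCAN3 against WT, against M1BP RNAi or against ZKSCAN3, nor in the interaction of the 2 transgenes (0% of genes each). With all 8 libraries and TMM factors, the lowest FDR of any member in any male comparison by edgeR was 0.141, that of Atg7 in M1BP RNAi. DESeq2 with all 8 libraries gave no member in any of these 6 comparisons, where it called 7.91%, 0.0984%, 7.27%, 2.25%, 5.83% and 0.743% of genes in the order just given. With only the 2 groups compared it called 1 of 10 members, Atg8a in M1BP RNAi against WT at 0.66 (FDR = 3.98e-04), where 13.4% of genes were called. It called no member in the other 4 such comparisons, where 0.263%, 7.10%, 1.65% and 3.15% of genes were called.

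In M1BP RNAi, Atg7 stood at 43.8 and 18.0 CPM against 11.9 and 11.04 in WT, a difference of 1.43 (SE 0.528, unadjusted p = 0.0337 and FDR = 0.141 by edgeR). Atg8a stood at 246 and 197 CPM against 135 and 139, a difference of 0.70 (SE 0.271, unadjusted p = 0.0401 and FDR = 0.153 by edgeR). Both libraries of M1BP RNAi lay above both of WT for these genes, and replicate 1 was the higher one in each. Atg3 stood at 43.3 and 44.6 CPM against 33.5 and 35.7 (0.35, SE 0.216), Atg5 at 12.1 and 12.9 against 10.2 and 11.3 (0.22, SE 0.151), and Atg16 at 11.98 and 12.01 against 10.5 and 11.9 (0.10, SE 0.132). These 5 of 10 members lay apart and higher (background 34.1%) and none apart and lower (background 30.0%), and 2 had an unadjusted p under 0.05 (background 29.6%). The median of the members was 0.24, beside 0.11 over all genes.

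Atg4a, at 49.5 and 46.8 CPM against 44.4 and 50.7, Atg4b, at 7.69 and 7.00 against 8.50 and 7.14, Atg10, at 2.33 and 2.54 against 1.79 and 2.53, and Atg12, at 1.105 and 1.46 against 0.886 and 1.25, overlapped between M1BP RNAi and WT. Their differences lay between -0.09 and 0.26, with standard errors of 0.159 to 0.361. Without TMM factors the median of all genes moved up by 0.46 in this comparison, Atg4b turned from -0.09 to 0.37, and Atg8a, Atg5 and Atg3 stood at 1.17, 0.68 and 0.81 with FDR values of 0.0378, 0.0369 and 0.0389. Without M1BP RNAi replicate 1, the library with the testis markers, Atg7 differed by 0.65 and Atg8a by 0.54.

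With ZKSCAN3 alone, most members overlapped with WT. Atg7 stood at 23.4 and 11.99 CPM and Atg12 at 1.48 and 1.40, both apart from and above WT, 2 of 10 members (background 19.2%), with differences of 0.62 (SE 0.521) and 0.43 (SE 0.362). The other 8 overlapped, with Atg8a at 178 and 119 CPM and Atg3 at 45.0 and 35.2, and replicate 1 was the higher library for Atg8a, Atg7, Atg3, Atg4a and Atg5. No member had an unadjusted p under 0.05 (background 3.28%).

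Adding ZKSCAN3 to M1BP RNAi was compared with M1BP RNAi alone. Atg8a stood at 152 and 104 CPM with both transgenes, against 246 and 197, a difference of -0.80 (SE 0.272, unadjusted p = 0.0249 and FDR = 0.244 by edgeR). Atg3 stood at 36.7 and 25.0 CPM (-0.51, SE 0.216), Atg5 at 10.2 and 8.77 (-0.40, SE 0.151), and Atg16 at 9.31 and 9.24 (-0.37, SE 0.132). These 4 members lay apart and lower (background 25.0%), and Atg5, Atg8a and Atg16 had an unadjusted p under 0.05 (background 17.9%), with the lowest FDR at 0.244. Atg7 stood at 19.1 and 10.8 CPM against 43.8 and 18.0, which overlapped (-1.05, SE 0.522). Without M1BP RNAi replicate 1 the differences were -0.63 for Atg8a and -0.27 for Atg7.

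Atg12 and Atg10, its conjugating enzyme, lay apart and higher with both transgenes. They were 2 of 10 members, near the share over all genes (background 22.8%). Atg12 stood at 1.59 and 2.03 CPM with both transgenes, against 1.105 and 1.46 in M1BP RNAi (0.50, SE 0.360), and Atg10 stood at 2.92 and 2.94 against 2.33 and 2.54 (0.27, SE 0.273). Neither passed, with FDR values of 0.434 and 0.578. The ratio of Atg5 to Atg12 TPM within a library was 1.78 on average with both transgenes and 3.28 in M1BP RNAi, and the libraries did not overlap (exact permutation test, two-sided, p = 0.333, the smallest possible). ND-SGDH, which shares exon bases with Atg12, had 3060 and 7286 counts with both transgenes and 1610 and 2693 in M1BP RNAi. Of the genes that share exon bases with Atg10, CG12822 had 426 and 651 counts against 303 and 368. Dgk, the other one, had 337 and 515 against 500 and 323. Their part in the Atg12 and Atg10 values was not tested. The median of the 10 members was -0.38, beside -0.08 over all genes.

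Against WT, the larvae with both transgenes had Atg12 at 0.76 (SE 0.362, FDR = 0.273), Atg10 at 0.44 (SE 0.274) and Atg8a at -0.10 (SE 0.270). Atg8b, Atg10 and Atg12 lay apart and higher (background 28.4%), 1 member, Atg16, apart and lower at -0.27 (background 28.0%), and none had an unadjusted p under 0.05 (background 23.4%). Against ZKSCAN3, Atg8b, Atg10 and Atg12 again lay apart and higher (background 27.0%) and Atg5 and Atg16 apart and lower (background 28.1%), with no unadjusted p under 0.05 (background 23.0%). Atg8b is counted here on 12 and 8 counts with both transgenes, against 3 and 0 in WT and 3 and 0 in ZKSCAN3. At such counts no direction was detectable for it. Without TMM factors the median of all genes moved up by 0.53 and 0.49 in these comparisons, and Atg16 turned to 0.26 and 0.31. The interaction, which compares the difference with ZKSCAN3 in the presence and absence of M1BP RNAi, was -0.91 (SE 0.383) for Atg8a, -1.67 (SE 0.737) for Atg7 and -0.73 (SE 0.305) for Atg3, with the lowest FDR of any member at 0.284 and no unadjusted p under 0.05 (background 17.8%). Comparisons with a shared group are not independent.

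**Figure D3:**
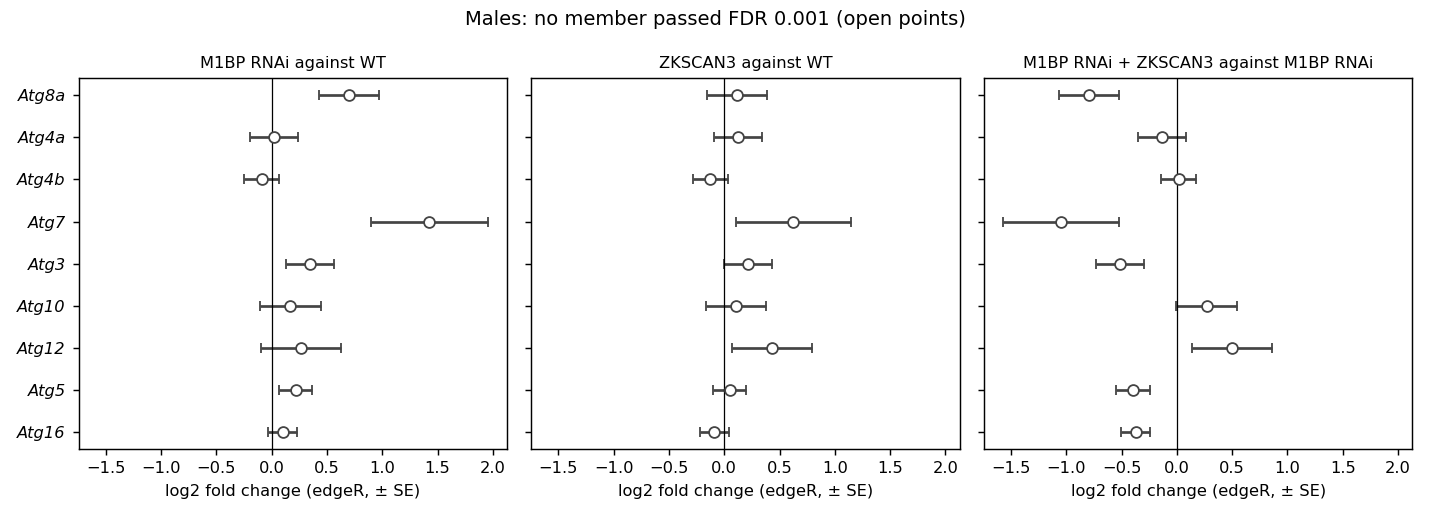
log2 fold changes of 9 members in 3 male comparisons from edgeR, with standard errors as bars; all points are open because none passed an FDR of 0.001. Atg8a stands at 0.70 in M1BP RNAi against WT and at -0.80 in M1BP RNAi + ZKSCAN3 against M1BP RNAi, 2 comparisons that share the M1BP RNAi libraries.

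The 7 hemocyte markers summed to 1091 and 1193 CPM for WT, 799 and 658 after M1BP RNAi, 617 and 1045 for ZKSCAN3 and 382 and 322 with both transgenes, and the 9 salivary gland markers to 11.9 and 5.51, 711 and 36.3, 13.04 and 24.4, and 585 and 924 CPM. The 8 midgut markers summed to 216 and 177 CPM for WT, 1467 and 718 after M1BP RNAi, 342 and 606 for ZKSCAN3 and 768 and 191 with both transgenes. The 8 muscle markers summed to 222 and 280 CPM for WT, 67.1 and 116 after M1BP RNAi, 210 and 256 for ZKSCAN3 and 69.4 and 161 with both transgenes. No hemocyte or muscle marker was at 0 in any group, nor any salivary gland marker except 1 in M1BP RNAi, while 1 midgut marker was at 0 in WT, M1BP RNAi and ZKSCAN3. Their part in the differences was not tested.

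Atg8b, known as the testis form of Atg8, was close to absent from fat body. Among males, the M1BP RNAi libraries held 95 and 2 counts of it, those with both transgenes 12 and 8, and those of WT and of ZKSCAN3 3 and 0 each. Among females, the L3F libraries held 0 and 23 counts and the L3W libraries 0 and 0, where 3 counts, the most that a count of 0 allows, come to 0.0514 and 0.0439 CPM. The 95 counts fell in the library with 1989 counts of betaTub85D, the testis beta-tubulin, and the 23 in the library labelled female L3F replicate 2, with 419. ZKSCAN3 replicate 2, however, had 291 counts of betaTub85D and no Atg8b, and the libraries with both transgenes had 12 and 8 counts of Atg8b with 9.90 and 11.6 CPM of testis markers, within the range of the other males. Atg8b passed the filter on low counts in males and not in females, and its fitted difference in M1BP RNAi was 4.60 (SE 2.27), which became -0.19 without replicate 1. At these counts no direction was detectable for Atg8b.

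**Figure D4:**
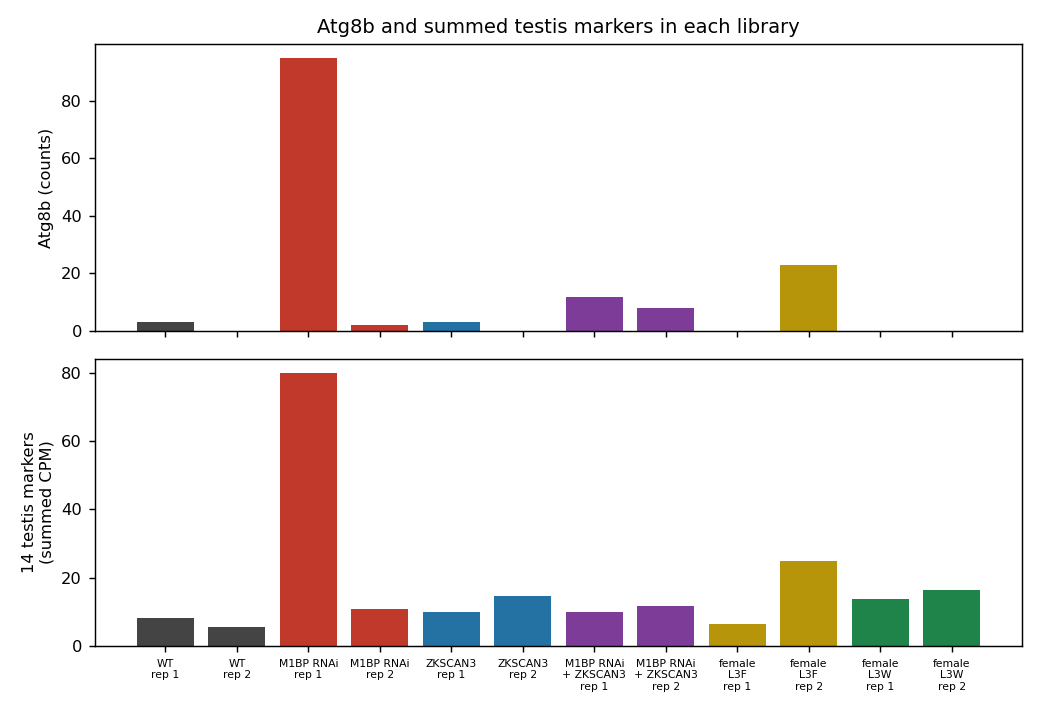
Counts of Atg8b (top) and summed CPM of 14 testis markers (bottom) in each RNA library, as bars from 0. Male M1BP RNAi replicate 1 holds the highest value of both, 95 counts and 80.0 CPM, and the library labelled female L3F replicate 2 is next for both.

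Peaks of ZKSCAN3 and ZKSCAN4 in S2 cells were then read at the members' starts, counting a peak that overlapped 500 bp on either side of the most upstream start. ZKSCAN3 had a peak at 8 of the 10 starts, all but Atg8b and Atg10, where 46.9% of all genes and 63.4% of the genes tested in males had one. ZKSCAN4 had a peak at 7, the same genes without Atg16, where the shares were 30.6% and 41.2%. Both factors had one at these 7, against 38.1% of the genes tested in males. The peaks came from another cell type than the RNA, were merged over replicates by the authors, and are wide, from 833 to 3355 bp at these genes. The ZKSCAN3 list holds 8991 peaks, the study's number before it removed high occupancy target regions, which many factors bind. Such regions were not removed here, and whether the members' peaks lie in them was not tested. With at least 50% of the peak inside the window, 4 and 3 members were left for the factors, where 34.4% and 23.9% of the genes tested in males were. Those left were Atg3, Atg4a, Atg7 and Atg16 for ZKSCAN3, and Atg3, Atg4b and Atg7 for ZKSCAN4. Atg8a was left for neither factor.

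The ZKSCAN3 peak at Atg8a stood out by score, at rank 54 of 8991, in the top 0.601% of the list. Those at Atg3 and Atg12 ranked 377 and 520, in the top 4.19% and 5.78%, Atg5 and Atg4b followed at 28.5% and 38.6%, Atg16 and Atg7 at 50.1% and 58.6%, and the Atg4a peak was among the weakest, at 81.1%. In the ZKSCAN4 list of 8745 peaks, Atg5 at 28.8%, Atg3 at 35.3% and Atg8a at 36.2% led, and Atg4a was last at 96.2%. A score belongs to the whole peak, which need not centre on the member. The ZKSCAN3 peak at Atg12 was centred 1261 bp from its start, beyond the end of the gene. The ZKSCAN4 peak at Atg5 was centred at -1185 bp and did not cover its start. What the score measures is not stated in the sources used here. The ranks at Atg7, the gene with the largest difference at L3W, were in the lower part of both lists.

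Most of these peaks also covered the start of a neighbour. At 8 of the 10 genes the nearest other start belonged to a gene on the opposite strand that begins upstream, and for 6 of them it lay within 500 bp: 199 bp for Atg8a (BTBD9), 205 bp for Atg7 (Sec6), 261 bp for Atg12 (CG5645), 305 bp for Atg4b (Hibch), 320 bp for Atg3 (Nufip) and 444 bp for Atg5 (Dok). The ZKSCAN3 peaks of all 6 covered the neighbour's start too. The share of all genes with such a neighbour was not computed, so the arrangement is not shown to be particular to the members. BTBD9 stood at 3.07 and 4.06 TPM in L3F and 4.04 and 4.27 in L3W, while Atg8a on the other side of the same 199 bp stood at 93.4 and 114.5 against 480 and 507. Hibch stood at 154 and 142 TPM in L3F and 37.1 and 39.3 in L3W, beside an Atg4b that overlapped between the stages in TPM, at 6.07 and 6.68 against 6.44 and 7.35. Sec6, beside Atg7, stood at 5.08 and 4.98 TPM in L3F and 9.14 and 11.5 in L3W. Dok, beside Atg5, stood at 3.18 and 3.00 TPM against 6.46 and 7.20. Nufip, beside Atg3, stood at 1.90 and 1.81 TPM against 1.88 and 2.30. CG5645, beside Atg12, stood at 4.95 and 3.75 TPM against 1.93 and 2.45. These partners are given as values only and were not tested.

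**Figure D5:**
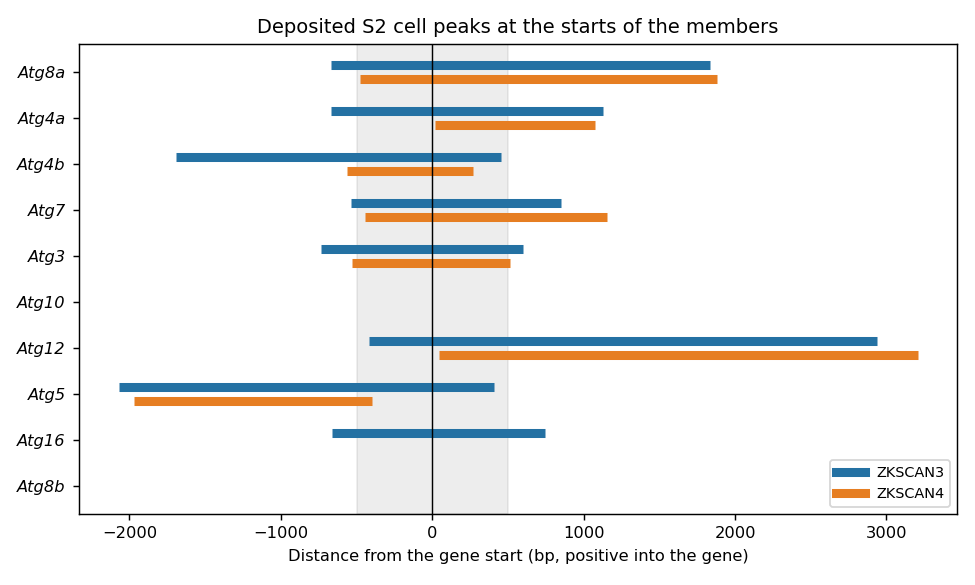
Extent of the deposited ZKSCAN3 (blue) and ZKSCAN4 (orange) peaks at each member, as distance from its start in bp, positive into the gene; the grey band is 500 bp on each side. Atg8b and Atg10 have no peak there, Atg16 has one of ZKSCAN3 alone, and the peaks at Atg5 and Atg12 reach far to 1 side.

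The bases between the starts of Atg8a and BTBD9 are shown because they lie under the strongest of these peaks and hold the element that M1BP binds. Letters were searched on both strands from 250 bases before to 50 bases after each start, with the first transcribed base as 1 and the base before it as -1. The 9-letter core of Motif 1, GGTCACACT, was found in 1 member promoter, that of Atg8a, on the opposite strand at -196 to -188. It was found in 4.98% of all 17420 promoters and in 7.25% of the 11672 promoters of genes tested in males. That Atg8a match, read from BTBD9, lay at -11 to -3 on its own strand. It was not at the middle of the ZKSCAN3 peak, which is 2502 bp wide and centred 585 bp into Atg8a. The match lay 777 bp from that centre. It also lay within the ZKSCAN4 peak, 894 bp from the centre of that one. The 8 letters GGTCACAC were in 6.37% of all promoters and 9.23% of those of genes tested in males. With them, Atg8a had a further match on its own strand at -10 to -3, and Atg7 had 1 at -232 to -225. Both starts of the Atg8a and BTBD9 pair thus had this element within 11 bases. From the genome of dm6, chrX:10768339-10768536, minus strand, in the direction of Atg8a, with both matches in capitals:
Atg8a, -198 to -1: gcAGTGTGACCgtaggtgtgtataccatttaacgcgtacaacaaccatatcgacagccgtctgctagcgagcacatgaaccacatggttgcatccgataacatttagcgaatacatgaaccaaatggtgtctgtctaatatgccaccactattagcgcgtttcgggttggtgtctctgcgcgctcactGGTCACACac
No base of this stretch lies in an annotated exon of the count table.

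Other elements were found at Atg3, Atg12 and Atg16, whose starts also lie under ZKSCAN3 peaks, and they are shown for comparison with Atg8a. TATCGATA, the DRE, was found at Atg3, Atg7 and Atg12 (7.70% of all promoters and 10.9% of those of genes tested in males). The GATA element, spelled GATAAG, was found at Atg3, Atg4a, Atg7 and Atg16 (18.1% and 19.7%). The E-box, spelled CACGTG, was found at Atg4a alone (4.21% and 4.15%). At Atg3 and Atg7 the GATAAG match overlapped the DRE. Matches are in capitals, with each sequence on the strand of its gene, from chr3L:18748627-18748656 (plus), chr3L:12136892-12136921 (plus) and chr3R:29835104-29835133 (minus):
Atg3, -60 to -31, DRE and GATAAG on the opposite strand: cctgcaacaaCTTATCGATAgtcccaccca
Atg12, -75 to -46, DRE: tcgtgacaccTATCGATAatttcttcagaa
Atg16, -32 to -3, GATAAG: tcgaagccgatgtcacatcGATAAGtatcg
Outside these windows, the core of Motif 1 was also found within the peaks of both factors at Atg3 and at Atg12. At Atg3 it lies 7 to 15 bases into Nufip. At Atg12 it lies 1513 bp from the start, beyond the end of the gene. The share of all peaks with the core anywhere inside them was not computed. Within 300 bp around the centre of each peak, a shorter stretch than these peaks, the core was found in 2.94% of 8948 ZKSCAN3 peaks and 1.24% of 8629 ZKSCAN4 peaks. A match is a match of letters, not a bound site.

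Genes whose pattern was most like that of a member were found among 4965 other genes with a mean of at least 10 CPM, by Pearson correlation of log2(CPM + 0.5) over the 12 RNA libraries. For Atg8a they included Stam (0.985) and ced-6 (0.984) among the closest 3, and for Atg7 they were Sema1b (0.992), Ho (0.992) and CG1513 (0.992). Among the members, Atg3, Atg4a, Atg5, Atg7 and Atg8a correlated with one another at 0.903 to 0.986. Atg12 correlated with those 5 at 0.0354 to 0.149 and with Atg4b at -0.60. These are descriptions over 12 libraries, which include the high L3W pair and differ in depth and sex.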

How the data were processed

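RNA was measured in 12 libraries of larval fat body and chromatin of S2 cells in 2 merged peak lists. The deposited counts were made by the authors, who kept uniquely mapped Subread alignments to dm6 and assigned them to FlyBase exons with featureCounts, without strand and with reads over several genes counted for each. The exon length column is another deposited value (other unit) and gave TPM, computed here from the authors' counts. The peak score was deposited by the authors from MACS2 at an irreproducible discovery rate of 1%. Authors' tables of DESeq2 fold changes and adjusted p-values, listing only genes past their threshold, were not used.

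Counts were fitted with edgeR 4.0.16 in R 4.3.3 (TMM, filterByExpr, quasi-likelihood test, Benjamini-Hochberg over all tested genes, FDR 0.001), separately for 8 male and 4 female libraries, since the tables were counted separately and differ in sex and driver; 11723 and 10720 genes were tested. Alternatives were DESeq2 1.42.0, other scalings, filters, libraries and thresholds; scaling by total counts alone was chosen after seeing the data. Fits were tested on simulated data. Replicates are those named by the labels, and p-values measure the spread between these libraries. Members and gene lists were chosen with earlier results of these data known; all members and M1BP are named, listed genes where called (1 of these is not reported here), and the genes most like Atg8a and Atg7 (1 is left unnamed). Of the listed symbols, Alfy, nos, Hemese and rye had no gene of their own in the table. Limits of counts cover counting error only. Genome letters came from the RefSeq release 6 assembly, and 17264 of 17358 genes had their start at an annotated start of the gene models used. Python 3.11.15 with SciPy 1.17.1 and matplotlib 3.10.9 served for the rest. In 1 label of the second ZKSCAN3 ChIP sample the genotype names ZKSCAN4; it was grouped by its title.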

Additional observations from a re-analysis of the deposited data

How the results depend on the processing

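Scaling by total counts alone, chosen after seeing the data, gave member medians of 0.70 in M1BP RNAi against WT, 0.43 in M1BP RNAi + ZKSCAN3 against WT, -0.32 against M1BP RNAi, 0.29 against ZKSCAN3 and 1.20 at L3W. Under it these values changed sign: Atg4b to 0.37 in M1BP RNAi against WT, Atg3 to 0.34, Atg4a to 0.40, Atg4b to 0.45, Atg5 to 0.35, Atg8a to 0.41 and Atg16 to 0.26 with both transgenes against WT, Atg3 to 0.094, Atg4a to 0.24, Atg5 to 0.26, Atg7 to 0.22, Atg8a to 0.26 and Atg16 to 0.31 with both against ZKSCAN3, and Atg4b to 0.12 and Atg10 to 0.19 at L3W. Atg4a in M1BP RNAi against WT turned to -0.021 with DESeq2 size factors, -0.020 with DESeq2 on all libraries and -0.020 with DESeq2 on the 2 groups, which called 1 member. At L3W, 5 members passed at FDR 0.05 and 5 with DESeq2. With the higher-scoring 50% of peaks, 5 members had a ZKSCAN3 and 3 a ZKSCAN4 peak (45.0% and 22.9% of the genes tested in males), and with at least 50% of the peak inside the window 4 and 3. The 8-letter core of Motif 1 gave 2 members (6.37% of all promoters and 9.23% of those of genes tested in males).

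Correlations of same-numbered deviations between groups ran from -0.0762 to 0.343 in males, the highest between WT and M1BP RNAi, and stood at -0.0210 in females. With 2 libraries in each group, they cannot decide whether libraries with the same replicate number were paired. With the replicate number as a block, 0 members were called at L3W, with FDR values of 0.00456 for Atg7, 0.00590 for Atg8a and 0.00682 for Atg3 by edgeR, and 0 of 10720 genes were called in all.

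Leaving out each library in turn, 0 to 1 members were called at L3W and 0 in every male comparison. The member medians ran from 0.047 to 0.42 in M1BP RNAi against WT, -0.062 to 0.33 in ZKSCAN3 against WT, -0.19 to 0.16, -0.46 to -0.18 and -0.25 to 0.074 with both transgenes against WT, M1BP RNAi and ZKSCAN3, -0.54 to -0.19 in the interaction and 0.89 to 1.04 at L3W. The log2 differences of these members crossed 0, and the cause was not tested. In M1BP RNAi against WT the ranges were Atg4a -0.075 to 0.12, Atg4b -0.21 to 0.038, Atg10 -0.059 to 0.45, Atg8b -0.19 to 8.67 and Atg12 -0.043 to 0.54. In ZKSCAN3 against WT the ranges were Atg5 -0.054 to 0.14, Atg8b -4.06 to 4.0, Atg10 -0.13 to 0.38, Atg16 -0.19 to 0.0070, Atg4a -0.072 to 0.29 and Atg8a -0.21 to 0.38. In M1BP RNAi + ZKSCAN3 against WT the ranges were Atg4b -0.18 to 0.062, Atg7 -0.087 to 0.76, Atg3 -0.46 to 0.10, Atg4a -0.39 to 0.15 and Atg8a -0.39 to 0.17. In M1BP RNAi + ZKSCAN3 against M1BP RNAi the ranges were Atg8b -3.44 to 2.26, Atg4b -0.029 to 0.14 and Atg4a -0.41 to 0.18. In M1BP RNAi + ZKSCAN3 against ZKSCAN3 the ranges were Atg7 -0.71 to 0.33, Atg8a -0.50 to 0.12 and Atg4a -0.51 to 0.0075. In the interaction of ZKSCAN3 with M1BP RNAi the ranges were Atg10 -0.10 to 0.40, Atg12 -0.20 to 0.40, Atg8b -6.53 to 2.30 and Atg4a -0.53 to 0.034. In L3W against L3F the ranges were Atg10 -0.12 to 0.033 and Atg16 -0.019 to 0.19. With 2 libraries in each group, a difference that misses the threshold was not shown to be absent.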
